A study of Mus musculus with 27 samples.

Results

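The cytosolic sulfotransferases described here were 9 genes of mouse liver, Sult1a1, Sult1b1, Sult1c2, Sult1d1, Sult1e1, Sult2a3, Sult2a8, Sult3a1 and Sult5a1, taken as the rows of the gene count table whose Ensembl identifiers carry these symbols, 9 of 55414 rows. Another 12 mouse sulfotransferases were kept as a list of relatives. RNA was sequenced from the livers of 27 female Balb/c mice, 8 weeks old, in 8 groups, to follow how liver fibrosis and drugs or siRNA against hyaluronan synthesis change expression. Fibrosis was induced over 2 weeks with intraperitoneal CCl4, a solvent toxic to hepatocytes, and the other mice received olive oil. Without CCl4 there were 4 control mice with PBS in the tail vein, 3 mice given 4-methylumbelliferone (4MU) by gavage, 3 given lipid nanoparticles with siRNA against luciferase (siLuc, a sequence with no mouse target) and 3 given nanoparticles with siRNA against Has2 (siHAS2). With CCl4 there were 2 mice with no further treatment (CCl4-only), and 4 mice each with 4MU (CCl4+4MU), siLuc (CCl4+siLuc) and siHAS2 (CCl4+siHAS2). Per the methods, 4MU was given daily at 600 mg/kg in 0.5% carboxymethyl cellulose, and the siRNA at 1 mg/kg first and 0.5 mg/kg afterwards. The labels name no vehicle for the CCl4-only mice, so the gavage or the tail vein injection and the agent it carried cannot be told apart in comparisons with them. The methods describe a gavage of control mice with 0.5% carboxymethyl cellulose, whereas the control mice here had PBS in the tail vein. In comparisons of 4MU with control, the gavage and the drug thus cannot be told apart either.

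Sulfotransferases move a sulfo group from the donor PAPS (3'-phosphoadenosine 5'-phosphosulfate) onto a hydroxyl or amine of a small molecule, which makes the product more soluble in water and easier to excrete. Members of the SULT1 family act mainly on phenols, among them drugs, catecholamines, thyroid hormones and estrogens, and members of the SULT2 family on hydroxysteroids and bile acids. In mouse liver the Sult2a and Sult3a genes are known as female-biased genes, and 4MU is itself a phenol, a kind of molecule that sulfotransferases and glucuronosyltransferases conjugate.

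The libraries held 7044386 to 29425937 counted read pairs, the fewest in CCl4+siHAS2 mouse 4. Levels are in CPM, read pairs of a gene per 1000000 read pairs of the TMM-scaled library. Genes averaging 10 counts or more per liver were tested, 14114 in all, with 8 of the 9 sulfotransferases among them. Sult5a1 was the exception. The liver label fitted the hepatocyte markers, whose 7 measured genes summed to 182000 to 217000 CPM in the control livers and 87900 to 143000 CPM in the CCl4-only livers, with none at 0. In whole liver, fewer cells of a type and less RNA per cell cannot be told apart. Has2, the target of the siRNA, had 0 counts in 25 livers, 2 counts in CCl4-only mouse 2 and 1 count in CCl4+siLuc mouse 4, so its knockdown was not detectable at this depth. CCl4-only mouse 2 was lower than CCl4-only mouse 1 for 8 of the 9 sulfotransferases and had the highest TMM factor of all libraries, 1.323, so calls that rest on this mouse, and differences that it moves most, are also given without it. CCl4+4MU mouse 4 stood apart in genes of other tissues. The 4 intestine or kidney genes summed to 44.6 CPM in this liver against 2.98 to 16.3 CPM in the other 26, with Lgals4 and Vil1, made in gut epithelium, at 39.3 and 5.30 CPM and the kidney genes Umod and Slc34a1 at 1 and 0 counts, and the 3 smooth muscle genes to 27.5 CPM against 0.299 to 3.88 CPM. Lgals4, the 1 gene of the first list that was tested, was higher in CCl4+4MU against CCl4-only (log2 fold change 1.94, adjusted p = 0.0384). The part of these tissues in the sulfotransferase values was not tested, and values that rest on this liver are given without it as well.

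Of the hydroxysteroid and amine sulfotransferases, all 3 in the set fell in each of the 4 treatment arms, and each of the 14 livers with CCl4 lay below each of the 13 livers without it, a separation that 1.37% of all tested genes showed in this direction. These were Sult2a3 and Sult2a8, of the family that sulfates hydroxysteroids and bile acids, and Sult3a1, an amine sulfotransferase. Sult3a1 passed the low-count filter only through the livers without CCl4, so a call of it with CCl4 could only be lower. Sult2a3 lies on chromosome 7 at 13801371 to 13857003 and Sult2a8 on the same chromosome at 14144611 to 14180694, both on the minus strand of GRCm39, and Sult3a1 lies on chromosome 10 at 33726976 to 33756605 on the plus strand. The 250 bases before their RefSeq start sites are shown because these 3 genes were lower with CCl4 in all 4 arms. Short motifs were searched on both strands and are set in capitals, namely AGGTCA (a nuclear receptor half-site, held by 14% of 32851 RefSeq mouse promoters of this length), TTCNNNGAA (a STAT core, 7.02%), GTTAAT (an HNF1 half-site, 6.43%) and TATAAA (found at the box that positions many start sites, 12.4%). Coordinates of the sequences are those of GRCm38.p6, the build of the RefSeq table, and not of the build used for counting.
Sult2a3, chr7:14123049-14123298, minus strand: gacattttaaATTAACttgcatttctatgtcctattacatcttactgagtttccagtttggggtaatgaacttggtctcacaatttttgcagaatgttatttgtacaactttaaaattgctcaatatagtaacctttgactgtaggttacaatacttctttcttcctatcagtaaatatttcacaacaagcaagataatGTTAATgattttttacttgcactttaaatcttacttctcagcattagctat
Sult2a8 start 1, chr7:14446588-14446837, minus strand: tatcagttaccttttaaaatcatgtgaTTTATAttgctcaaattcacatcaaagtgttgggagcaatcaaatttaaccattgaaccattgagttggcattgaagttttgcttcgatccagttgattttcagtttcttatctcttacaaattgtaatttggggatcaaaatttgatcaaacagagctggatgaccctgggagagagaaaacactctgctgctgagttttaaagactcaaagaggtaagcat
Sult2a8 start 2, chr7:14438552-14438801, minus strand: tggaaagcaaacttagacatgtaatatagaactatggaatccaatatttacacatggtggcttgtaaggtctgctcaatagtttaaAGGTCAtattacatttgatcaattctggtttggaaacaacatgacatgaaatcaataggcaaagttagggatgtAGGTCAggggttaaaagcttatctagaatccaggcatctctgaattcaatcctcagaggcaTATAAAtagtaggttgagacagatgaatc
Sult3a1, chr10:33857472-33857721, plus strand: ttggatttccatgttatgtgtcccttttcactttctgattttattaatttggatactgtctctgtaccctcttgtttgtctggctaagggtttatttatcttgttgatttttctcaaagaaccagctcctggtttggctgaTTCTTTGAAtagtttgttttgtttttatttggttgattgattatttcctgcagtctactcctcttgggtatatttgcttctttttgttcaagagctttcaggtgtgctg
No motif was present before all 3 genes. GTTAAT was found before Sult2a3 with its first base 51 and 240 bases before the start, AGGTCA before the second start of Sult2a8 at 164 and 90, TATAAA before both starts of Sult2a8 at 223 and 29, and TTCNNNGAA before Sult3a1 at 109. These matches are letters only, none of them overlapped another, and they carry no measurement of binding.

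Sult2a3 was lower in every CCl4 liver than in any liver without CCl4. Control livers had 28.5, 21.1, 25.1 and 57.0 CPM and CCl4-only livers 0.972 and 0.188 CPM. With 4MU the livers without CCl4 had 60.1, 37.9 and 38.7 CPM and those with CCl4 1.59, 1.20, 1.37 and 1.28 CPM. With siLuc the values were 39.3, 57.3 and 38.9 CPM without CCl4 and 0.274, 1.39, 0.420 and 0.139 CPM with it. In these 3 arms the lowest liver without CCl4 stood far above the highest liver with it. With siHAS2 the livers without CCl4 were more spread, at 27.7, 3.35 and 14.7 CPM, and siHAS2 mouse 2 was the lowest of all livers without CCl4. The CCl4+siHAS2 livers had 0.430, 1.07, 0.601 and 1.07 CPM, still all below it. The log2 fold change of Sult2a3 was -5.90 in CCl4-only against control (SE 0.807, 59.8-fold lower, adjusted p = 4.91e-06), -5.06 in CCl4+4MU against 4MU (SE 0.548, adjusted p = 3.42e-07), -6.33 in CCl4+siLuc against siLuc (SE 0.604, adjusted p = 4.72e-08) and -4.37 in CCl4+siHAS2 against siHAS2 (SE 0.598, adjusted p = 2.13e-05). These and all adjusted p-values below are from edgeR's quasi-likelihood test, adjusted by Benjamini-Hochberg over the 14114 genes.

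Sult2a8 fell less far than Sult2a3 and kept a measurable level in each CCl4 liver. Control livers had 303, 277, 232 and 183 CPM and CCl4-only livers 39.1 and 19.6 CPM. The 4MU livers had 250, 398 and 162 CPM against 75.3, 80.4, 42.0 and 29.9 CPM with CCl4+4MU. The siLuc livers had 176, 414 and 283 CPM against 20.8, 73.4, 22.7 and 10.9 CPM with CCl4+siLuc. The siLuc arm thus held the lowest Sult2a8 value of all livers, in CCl4+siLuc mouse 4. The siHAS2 livers had 272, 346 and 257 CPM against 49.9, 38.0, 54.3 and 69.3 CPM with CCl4+siHAS2. The log2 fold change was -3.08 in CCl4-only livers (SE 0.605, 8.47-fold lower, adjusted p = 0.00037), -2.25 with 4MU (SE 0.456, adjusted p = 0.000875), -3.19 with siLuc (SE 0.470, adjusted p = 2.17e-05) and -2.47 with siHAS2 (SE 0.460, adjusted p = 0.000724).

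Sult3a1 went from a clear signal to almost none. Control livers held 301, 319, 393 and 53 counts, 4MU livers 128, 1003 and 289, siLuc livers 131, 112 and 79, and siHAS2 livers 115, 430 and 229. The CCl4-only livers held 0 and 7 counts, the CCl4+4MU livers 1, 3, 4 and 0, the CCl4+siLuc livers 3, 0, 0 and 1, and the CCl4+siHAS2 livers 0, 2, 2 and 0. Of the 14 CCl4 livers 6 were therefore at 0, where a count of 0 still allows up to 3 counts, or 0.104 to 0.400 CPM depending on the library. Taken at 3 counts in each CCl4 library, Sult3a1 was at least 44.7-fold lower in CCl4+siLuc than in siLuc (adjusted p = 1.44e-05) and at least 65.6-fold lower in CCl4+siHAS2 than in siHAS2 (adjusted p = 6.1e-06). The fitted log2 fold change was -6.45 in CCl4-only against control (SE 1.08, adjusted p = 6.65e-05) and -7.85 in CCl4+4MU against 4MU (SE 0.869, adjusted p = 4.63e-07), and such values depend on how the model treats counts near 0. Without CCl4-only mouse 2, which held the 7 counts, the first was -11.2, with the 1 liver left at 0 counts. Under limma-voom with quality weights the Sult3a1 calls were lost in CCl4-only against control (adjusted p = 0.155) and in CCl4+siLuc against siLuc (adjusted p = 0.0925).

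**Figure D1:**
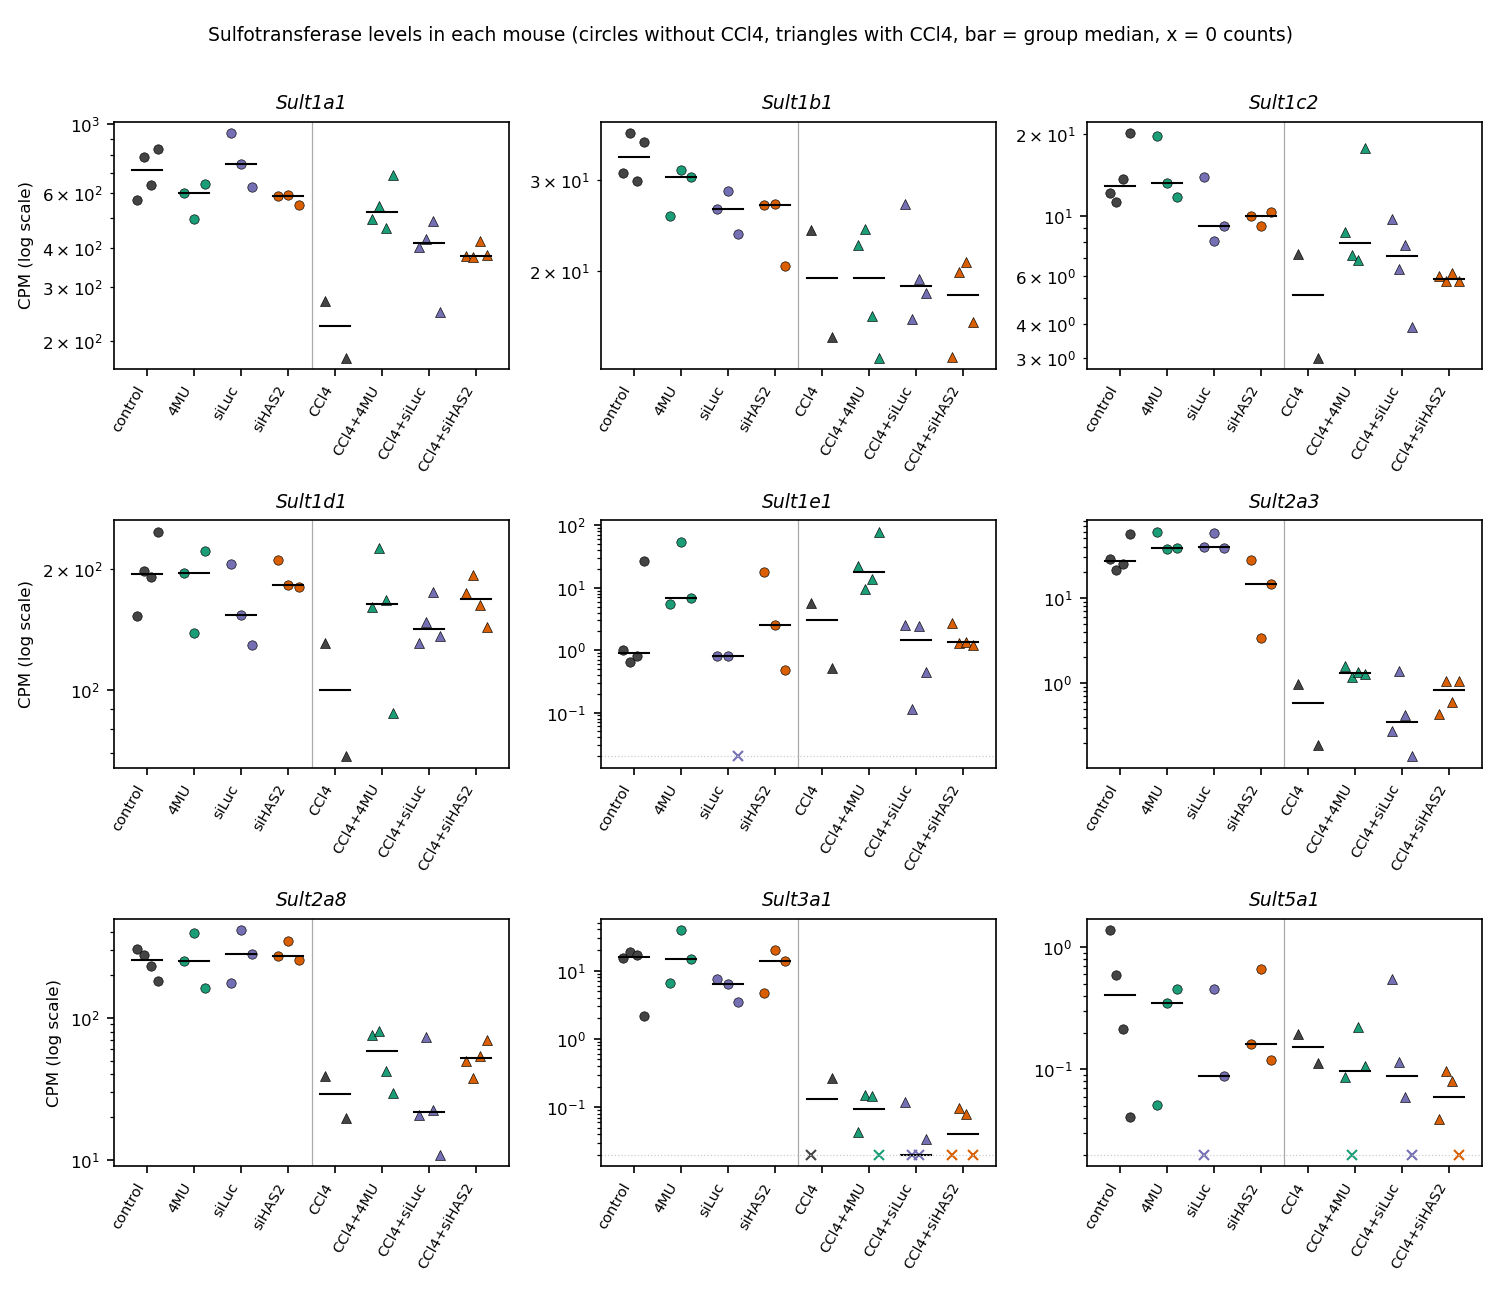
CPM (log axis) of each of the 9 sulfotransferases in each of the 27 livers by group, with circles for livers without CCl4, triangles for livers with CCl4, a bar at the group median and a cross for 0 counts. Sult2a3, Sult2a8 and Sult3a1 are lower in all 14 CCl4 livers than in all 13 others, while Sult1e1 is high in single livers of several groups.

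Reads could be lost or misplaced between near-identical relatives, because pairs that map to several places were not counted. Of the 85-base stretches in its transcripts, Sult2a3 shared 7 of 1046 (0.669%) with another sulfotransferase, Sult3a1 shared 9 of 2708 (0.332%), and the other 7 members shared none, against 30.5% for Sult2a2 and 22.5% for Sult2a5. Sult2a3 was nevertheless close in coding sequence to Sult2a4, at 94.4% identity, and to Sult2a1, at 93.7%. Sult2a8 was more distant from Sult2a3, at 73.5%, and Sult3a1 was 90.9% identical to Sult3a2. The reference genome is of another strain than Balb/c, and how strain differences bear on these counts was not tested.

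The phenol sulfotransferase Sult1a1 passed the test as lower with CCl4 in 2 arms, and its log2 fold changes ran from -1.66 to -0.08 over the 4 arms. Sult1a1 lies on chromosome 7 at 126271299 to 126275615 on the minus strand of GRCm39. Its upstream sequence is shown because its CCl4 difference passed 2 of 5 tests of dependence on treatment, both calls resting on CCl4-only mouse 2. The sequence held 1 GTTAAT match, 232 bases before the start.
Sult1a1, chr7:126676419-126676668, minus strand: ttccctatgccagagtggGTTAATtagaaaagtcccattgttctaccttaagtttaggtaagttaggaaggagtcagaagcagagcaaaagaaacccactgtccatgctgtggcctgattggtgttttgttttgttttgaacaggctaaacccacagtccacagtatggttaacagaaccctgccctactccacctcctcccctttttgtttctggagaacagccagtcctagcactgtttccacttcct
Control livers had 571, 788, 638 and 836 CPM and CCl4-only livers 270 and 177 CPM, the lowest median of the 8 groups. The log2 fold change was -1.66 (SE 0.249, 3.17-fold lower, adjusted p = 1.64e-05). The siLuc livers had 939, 746 and 629 CPM and the CCl4+siLuc livers 402, 429, 490 and 248 CPM, a fall by 0.98 on the log2 scale (SE 0.201, adjusted p = 0.00093). In both arms no CCl4 liver reached the level of a liver without CCl4, as for 24.9% and 12.4% of all tested genes. The siHAS2 livers had 589, 592 and 550 CPM and the CCl4+siHAS2 livers 377, 373, 422 and 378 CPM. These groups did not overlap either, as for 12.5% of all tested genes in this direction. The difference of -0.57 (SE 0.201) did not pass the test (adjusted p = 0.0615), while DESeq2 (adjusted p = 0.0282) and limma (adjusted p = 0.0038) called it. The 4MU livers had 599, 497 and 642 CPM and the CCl4+4MU livers 497, 544, 465 and 685 CPM. Here the groups overlapped, and the log2 fold change was -0.08 (SE 0.202, adjusted p = 0.813).

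The other members of the SULT1 family with moderate levels, Sult1b1 (which sulfates thyroid hormones and phenols), Sult1c2 and Sult1d1 (which sulfates dopamine and other amine-bearing phenols), differed less. Sult1b1 ranged from 20.5 to 36.9 CPM in the 13 livers without CCl4 and from 13.7 to 26.9 CPM in the 14 with it. Sult1c2 ranged from 8.08 to 20.1 CPM without CCl4 and from 3.01 to 17.7 CPM with it. Sult1d1 ranged from 129 to 247 CPM without CCl4 and from 68.6 to 226 CPM with it. Although their ranges overlapped over all arms, both CCl4-only livers were below the 4 control livers for each of these genes. Of all tested genes 24.9% were separated in this direction. In CCl4-only against control the log2 fold change was -0.77 for Sult1b1 (SE 0.235, adjusted p = 0.0133), -1.49 for Sult1c2 (SE 0.397, adjusted p = 0.00542) and -0.98 for Sult1d1 (SE 0.294, adjusted p = 0.0125). All 3 calls rested on CCl4-only mouse 2, without which the log2 fold changes were -0.45 (adjusted p = 0.316), -0.96 (adjusted p = 0.187) and -0.56 (adjusted p = 0.302). In the treated arms Sult1b1 fell by 0.60 in CCl4+4MU against 4MU (SE 0.200, adjusted p = 0.0298), a call lost without any 1 of 4MU mouse 2, 4MU mouse 3, CCl4+4MU mouse 3 or CCl4+4MU mouse 4 (adjusted p of 0.0833 to 0.11). The other differences of these 3 genes in the treated arms did not pass the test. They lay between -0.73 (Sult1c2 in CCl4+siHAS2 against siHAS2, adjusted p = 0.154) and -0.14 (Sult1d1 in CCl4+siLuc against siLuc, adjusted p = 0.721), and leaving out CCl4+4MU mouse 4 called Sult1c2 lower in the 4MU arm (log2 fold change -0.96, adjusted p = 0.0273).

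Sult1e1, the estrogen sulfotransferase, behaved unlike the rest. Its upstream sequence is shown because its levels differed most between livers of a group, and it held 1 AGGTCA match, 113 bases before the start. Sult1e1 lies on chromosome 5 at 87723828 to 87739461 of GRCm39, in a row with Sult1d1 (87702504 to 87716933) and Sult1b1 (87661191 to 87686072), all on the minus strand.
Sult1e1, chr5:87591612-87591861, minus strand: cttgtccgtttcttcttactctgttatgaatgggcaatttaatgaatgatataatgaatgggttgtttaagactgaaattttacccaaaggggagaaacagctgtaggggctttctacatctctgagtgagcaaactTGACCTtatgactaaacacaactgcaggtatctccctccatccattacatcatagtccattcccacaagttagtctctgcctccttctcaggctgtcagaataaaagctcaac
Control livers had 1.02, 0.649, 0.811 and 27 CPM and CCl4-only livers 5.64 and 0.527 CPM. The 4MU livers had 5.58, 53.3 and 6.73 CPM and the CCl4+4MU livers 22, 9.72, 13.8 and 79.4 CPM. Single livers thus stood far above their group, control mouse 4, 4MU mouse 2 and CCl4+4MU mouse 4 among them, the last being the liver with the most reads from gut and smooth muscle genes. The siLuc livers had 0.800, 0.797 and 0 CPM, the last from 0 counts, and the CCl4+siLuc livers 2.50, 0.116, 2.46 and 0.450 CPM. The siHAS2 livers had 18.1, 2.54 and 0.478 CPM and the CCl4+siHAS2 livers 2.70, 1.32, 1.36 and 1.20 CPM. With CCl4 the groups overlapped in each arm, and the log2 fold changes ran from -2.06 (SE 1.24) in the siHAS2 arm to 1.39 (SE 1.69) in the siLuc arm, with the lowest adjusted p at 0.297. In CCl4-only against control it was -1.32 (SE 1.41, adjusted p = 0.495), which turned to 1.86 without control mouse 4 and was -0.38 without CCl4-only mouse 2. The value in the 4MU arm, 0.51, turned to -0.53 without CCl4+4MU mouse 4. Sult5a1, whose function is little known, held 0 to 27 counts without CCl4 and 0 to 14 counts with it, with 1 of 13 and 3 of 14 livers at 0, and was too low to test.

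Counted over the tested members, 7 of 8 were lower in CCl4-only against control, where 16.1% of all tested genes were lower, and 4 without CCl4-only mouse 2. In CCl4+4MU against 4MU it was 4 of 8 (10.5% of all tested genes), in CCl4+siLuc against siLuc 4 of 8 (11.2%) and in CCl4+siHAS2 against siHAS2 3 of 8 (5.09%). No member rose in any of these comparisons. The share of all tested genes without CCl4-only mouse 2 was not computed. Sult3a1 is among the lower members in each of them. It passed the low-count filter only through livers without CCl4, at 53 to 1003 counts against 0 to 7 with CCl4. A call of it could thus only be lower, and it adds no support to these counts. The median log2 fold change of the 8 members was -1.58, -0.57, -0.78 and -1.40 in the same order, and that of all tested genes -0.02, 0.00, -0.03 and 0.03. Setting Sult3a1 to its bound left these medians as they were. The siHAS2 median lies midway between Sult1e1 (-2.06, SE 1.24, not called) and Sult1c2 (-0.73). That Sult1e1 value turned to 0.13 without siHAS2 mouse 1, so this median does not show a deeper fall in the siHAS2 arm. Averaged over the 4 arms with equal weight, 7 of 8 members were lower (25.6% of all tested genes). The log2 fold changes were -5.41 for Sult2a3 (SE 0.346), -2.75 for Sult2a8 (SE 0.260), -0.84 for Sult1c2 (SE 0.171), -0.82 for Sult1a1 (SE 0.106), -0.56 for Sult1b1 (SE 0.105) and -0.38 for Sult1d1 (SE 0.129), and Sult3a1 also passed. The Sult1d1 call (adjusted p = 0.0168) was lost without CCl4-only mouse 2 (adjusted p = 0.0928) and with the 14 CCl4 livers pooled against the other 13 (adjusted p = 0.0629). Sult1e1 stood at -0.37 (SE 0.701), and its sign turned in several alternatives.

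**Figure D2:**
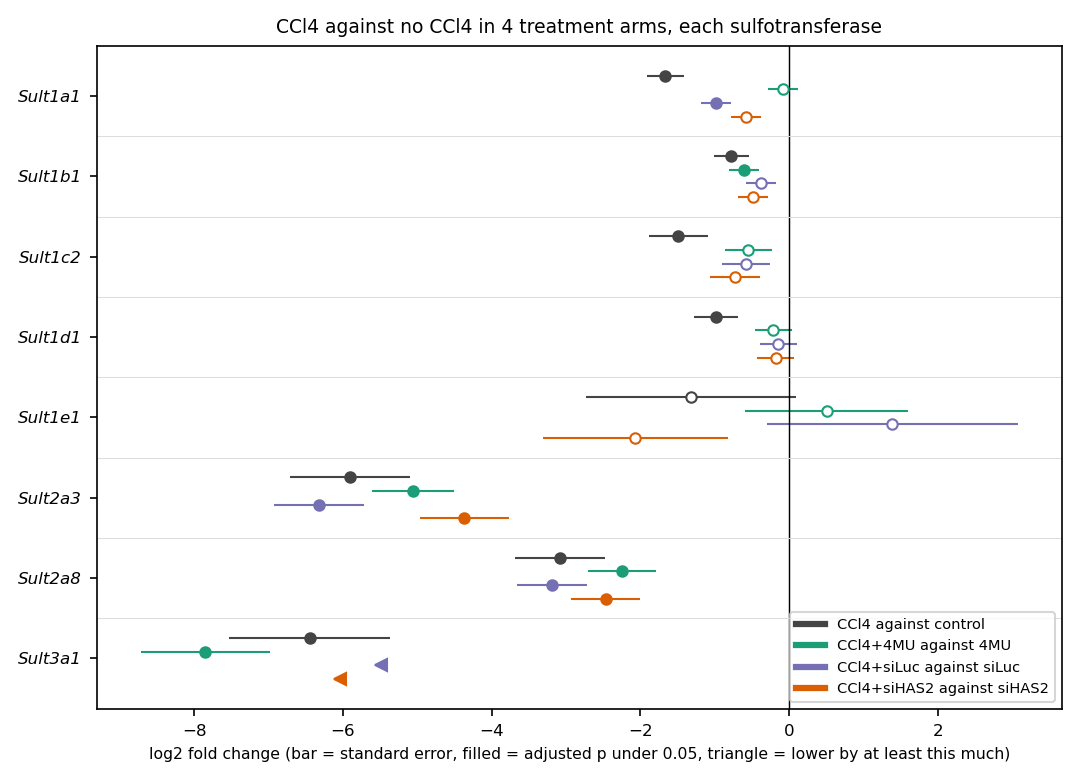
Log2 fold change (x axis) of each of the 8 tested sulfotransferases with CCl4 in the 4 treatment arms, with bars for the standard error, filled points for an adjusted p under 0.05 and triangles where the gene was lower by at least the plotted amount. Sult2a3, Sult2a8 and Sult3a1 lie far below 0 in each arm, and Sult1a1 ranges from -1.66 in the arm with no treatment to -0.08 with 4MU.

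Summed RNA of marker genes of some liver cell types also differed between the groups. The 7 pericentral hepatocyte genes, which mark the cells around the central vein, summed to 6370 to 9900 CPM in control and 453 to 793 CPM in CCl4-only livers. The sums were 1890 to 2770 CPM with CCl4+4MU, 479 to 1940 CPM with CCl4+siLuc and 1560 to 2550 CPM with CCl4+siHAS2. Of these genes 6 of 7 were lower in CCl4-only against control, where 16.1% of all tested genes were lower. The 8 stellate cell and myofibroblast genes summed to 189 to 299 CPM in control and 545 to 832 CPM in CCl4-only livers, with 6 of 8 higher (18% of all tested genes). The 5 cycling cell genes summed to 6.37 to 10.8 CPM in control, 289 to 552 CPM in CCl4-only and 44.3 to 197 CPM in CCl4+4MU livers, with 5 of 5 higher in CCl4-only (18% of all tested genes). No defining gene of these 3 lists was at 0. The sums of 6 periportal hepatocyte genes overlapped, at 6440 to 10300 CPM in control and 6260 to 10200 CPM in CCl4-only livers. Those of 8 Kupffer cell and macrophage genes overlapped as well (379 to 640 and 462 to 475 CPM). The part of these cell types in the sulfotransferase differences was not tested.

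Among the treated CCl4 livers, Sult1a1 was the member that differed from the CCl4-only livers. It rose by a log2 fold change of 1.29 in CCl4+4MU (SE 0.244, 2.45-fold, adjusted p = 0.00143). All 4 of these livers (465 to 685 CPM) stood above both CCl4-only livers (177 and 270 CPM), as for 23% of all tested genes, and 3 of the 4 above all 10 other CCl4 livers. It also rose by 0.79 in CCl4+siHAS2 (SE 0.238, 1.73-fold, adjusted p = 0.0278). Without CCl4-only mouse 2 the 2 calls were lost, at log2 fold changes of 0.99 (adjusted p = 0.0866) and 0.49 (adjusted p = 0.428), and the second was also lost without CCl4+siHAS2 mouse 3 (0.74, adjusted p = 0.0623). In CCl4+siLuc against CCl4-only the log2 fold change was of a like size, 0.81 (SE 0.238), and did not pass (adjusted p = 0.116), with CCl4+siLuc mouse 4 at 248 CPM inside the CCl4-only range. Without that mouse it was 0.98 (adjusted p = 0.00668), and without CCl4-only mouse 2 it was 0.53 (adjusted p = 0.72). Without CCl4+4MU mouse 4 the 4MU difference was 1.17 (adjusted p = 0.00539). These 3 comparisons share the same 2 CCl4-only livers.

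Of the 8 tested members 1 was higher in CCl4+4MU against CCl4-only, where 8.28% of all tested genes were higher, and 1 in CCl4+siHAS2 against CCl4-only (7.11%). Without CCl4-only mouse 2 these counts were 0 and 0. Without CCl4-only mouse 1 they were 3 and 2, with Sult1c2 (adjusted p = 0.0233) and Sult1d1 (adjusted p = 0.0277) added for 4MU and Sult1d1 (adjusted p = 0.0239) for siHAS2. Without CCl4+4MU mouse 3 the count for 4MU was 2, with Sult1c2 (adjusted p = 0.0469) added, and without CCl4+4MU mouse 4 it was 2, with Sult1d1 (adjusted p = 0.0315). The shares of all tested genes are those of the full fit. They were not computed with a mouse left out, so whether these counts moved with all genes is not known. None passed in CCl4+siLuc against CCl4-only (0.248% of all tested genes in either direction), where 1 had an unadjusted p under 0.05 (14.2% of all tested genes) and DESeq2 and limma called 1 each. The median log2 fold changes of the members were 0.98, 0.32 and 0.09 in the 3 comparisons, and those of all tested genes 0.04, 0.02 and 0.01. The member medians include Sult3a1 (-0.80, -1.42 and -1.70), whose counts were near 0 in all 4 groups. They were not recomputed without CCl4-only mouse 2. Without it the 6 members above 0 with 4MU had smaller values, 0.99 for Sult1a1, 0.46 for Sult1c2 and 0.25 for Sult1d1. Sult1e1 was then at 2.45, Sult2a3 at 0.45 and Sult2a8 at 0.50.

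The members that did not pass had wide errors, and their values moved with single livers. Sult1e1 in CCl4+4MU stood above both CCl4-only livers in all 4 mice and above all 10 other CCl4 livers, yet the log2 fold change of 3.38 had an SE of 1.52 (adjusted p = 0.119), and was 2.33 without CCl4+4MU mouse 4. Sult2a3 likewise did not overlap between the 2 groups, as for 23% of all tested genes in this direction, at 1.31 (SE 0.821, adjusted p = 0.27), and its highest CCl4+4MU value, 1.59 CPM, remained below the lowest liver without CCl4, 3.35 CPM. Sult1c2 was at 1.00 (SE 0.39, adjusted p = 0.074), Sult2a8 at 0.95 (SE 0.538, adjusted p = 0.215) and Sult1d1 at 0.68 (SE 0.290, adjusted p = 0.1). Without CCl4-only mouse 2 the log2 fold changes were 2.45 for Sult1e1, 0.45 for Sult2a3, 0.46 for Sult1c2, 0.50 for Sult2a8 and 0.25 for Sult1d1, and without CCl4+4MU mouse 4 Sult1c2 was at 0.58 (adjusted p = 0.28). In CCl4+siHAS2 against CCl4-only Sult2a8 was at 0.85 (SE 0.536) and Sult1d1 at 0.75 (SE 0.291, adjusted p = 0.0803), or 0.40 and 0.33 without CCl4-only mouse 2. Of the hepatocyte markers 4 of 7 were higher in CCl4+4MU than in CCl4-only livers (8.28% of all tested genes), with sums of 168000 to 201000 against 87900 to 143000 CPM. In CCl4+siHAS2 1 of 7 was higher (7.11% of all tested genes), and the sums of 123000 to 182000 CPM overlapped those of CCl4-only livers. The part of the hepatocyte markers in the Sult1a1 differences was not tested.

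Whether the 4MU difference itself depended on CCl4 was tested as an interaction. For Sult1a1 the difference between 4MU and no treatment was larger by 1.58 on the log2 scale in the CCl4 livers than in the livers without CCl4 (SE 0.315, adjusted p = 0.0115), the 1 member of 8 that passed, where 5.67% of all tested genes passed in either direction. Without CCl4-only mouse 2 it was 1.29 (adjusted p = 0.111), and without CCl4+4MU mouse 4 it was 1.46 (adjusted p = 0.0255). Sult1c2 was at 0.95 (SE 0.5) and Sult1d1 at 0.77 (SE 0.380), neither passing, and without CCl4-only mouse 2 they were at 0.42 and 0.35. The same interaction for the nanoparticle arms, each against the arm with no particle, was added after the data were seen. It passed for Sult1a1 with siHAS2 (1.09, SE 0.312, adjusted p = 0.0369, 1 of 8 members, 6.40% of all tested genes) and for no member with siLuc (Sult1a1 at 0.69, SE 0.310, adjusted p = 0.47, 0.00709% of all tested genes), where 2 members had an unadjusted p under 0.05 (10% of all tested genes). The siHAS2 call was not stable to leaving out 1 of its 13 mice, and was lost for 8 of them, namely control mouse 2 or 4, CCl4-only mouse 2, any of the 3 siHAS2 mice, and CCl4+siHAS2 mouse 3 or 4, with values of 0.78 to 1.09 and an adjusted p of 0.0517 to 0.31, whereas DESeq2 (adjusted p = 0.0125) and limma (adjusted p = 0.0134) called it with all mice. Run between siHAS2 and siLuc, the interaction was passed by 0 members (0.0354% of all tested genes), with 1 at an unadjusted p under 0.05 (11.4% of all tested genes) and none by DESeq2 or limma. Sult1a1 was at 0.40 there (adjusted p = 0.627). Between 4MU and siHAS2, a comparison also added after the data were seen, its interaction was 0.49 (adjusted p = 0.401). The control and CCl4-only livers enter all of the interactions against the arm with no treatment.

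Direct comparisons between treated CCl4 groups gave no sulfotransferase call. In CCl4+siHAS2 against CCl4+siLuc none of 8 passed (1.09% of all tested genes), none had an unadjusted p under 0.05, and neither DESeq2 nor limma called any. The log2 fold changes lay between -0.23 and 0.72. In CCl4+4MU against CCl4+siHAS2 none of 8 passed either (1.22% of all tested genes), although 3 had an unadjusted p under 0.05 (18.6% of all tested genes) and DESeq2 and limma called 1 each. Sult1e1 had the largest difference among them, 4.19 (SE 1.22, adjusted p = 0.0782 by edgeR and 0.0278 by DESeq2), with 9.72 to 79.4 CPM in the CCl4+4MU livers against 1.20 to 2.70 CPM. Sult1a1 was at 0.50 (SE 0.188, adjusted p = 0.156), Sult1c2 at 0.78 (SE 0.309, adjusted p = 0.178) and Sult2a3 at 0.88 (SE 0.644). For these 4 members all CCl4+4MU livers stood above all CCl4+siHAS2 livers, as did 6.21% of all tested genes. Without CCl4+4MU mouse 4 the differences were 3.15 for Sult1e1, 0.37 for Sult1a1, 0.36 for Sult1c2 and 0.92 for Sult2a3.

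In livers without CCl4 no treatment changed a sulfotransferase past the threshold. In 4MU against control none of 8 passed (0.00709% of all tested genes), with none at an unadjusted p under 0.05 and none by DESeq2 or limma. Apart from Sult1e1 the log2 fold changes lay between -0.29 and 0.61. Sult1e1 was at 1.55 (SE 1.10), which turned to -0.28 without 4MU mouse 2 and was 4.71 without control mouse 4. In siLuc against control none passed (0.213% of all tested genes), with 1 at an unadjusted p under 0.05 (6.8% of all tested genes) and none by DESeq2 or limma, and Sult1e1 was at -3.89 (SE 1.56) with control mouse 4 as the highest liver. Without that mouse it was -0.74. In siHAS2 against siLuc none passed (0.0425% of all tested genes), with 2 at an unadjusted p under 0.05 (8.94% of all tested genes), none by DESeq2 and 1 by limma. That gene was Sult2a3, at -1.56 by edgeR (SE 0.507, adjusted p = 0.29), with 3.35 to 27.7 CPM in siHAS2 livers and 38.9 to 57.3 CPM in siLuc livers. These ranges did not overlap, and neither did those of Sult1a1, also lower in siHAS2 livers. Of all tested genes 7.94% were separated in this direction.

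Added over the 9 genes, sulfotransferase reads had their lowest group mean in the CCl4-only livers, at 479 CPM in mouse 1 and 285 CPM in mouse 2. CCl4+siLuc mouse 4, at 418 CPM, lay between them, so these 2 groups overlapped. The size of the CCl4-only fall thus rests in part on CCl4-only mouse 2. The sum was 1255 ± 146 CPM in control livers (SD, n = 4) and 382 ± 137 CPM in CCl4-only livers (SD, n = 2). It was 1166 ± 40.5 CPM with 4MU (SD, n = 3) and 827 ± 94.0 CPM with CCl4+4MU (SD, n = 4). The siLuc groups had 1313 ± 170 CPM (SD, n = 3) and 601 ± 133 CPM with CCl4 (SD, n = 4), and the siHAS2 groups 1129 ± 72.6 CPM (SD, n = 3) and 635 ± 23.0 CPM with CCl4 (SD, n = 4). The CCl4 mean was thus 30.4% of the mean of its own arm without CCl4 with no treatment, 70.9% with 4MU, 45.8% with siLuc and 56.2% with siHAS2. Sult1a1 made up 51.2 to 59.4% of these reads in control livers and 41.1 to 66.7% over the other groups without CCl4. Its share was 56.5 to 62.3% in CCl4-only, 61.0 to 74.9% in CCl4+4MU, 59.4 to 68.3% in CCl4+siLuc and 59.0 to 63.2% in CCl4+siHAS2 livers, so the ranges of the 4 CCl4 groups overlapped.

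**Figure D3:**
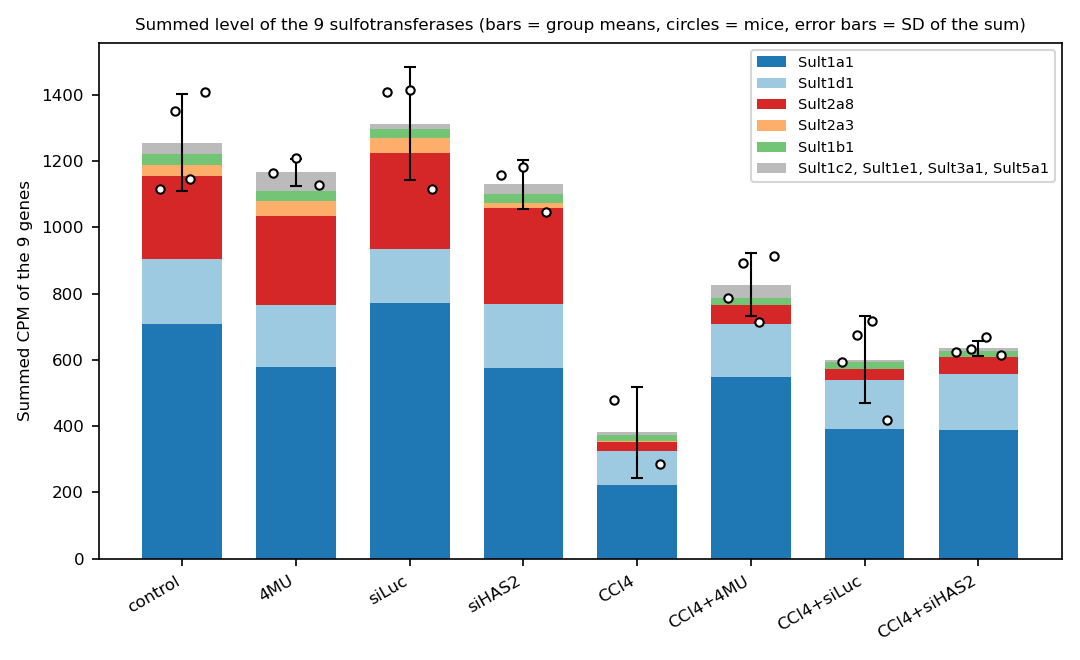
Summed CPM of the 9 sulfotransferases by group (y axis from 0), with bars for group means split by gene, circles for single livers and error bars for the SD of the sum. The CCl4-only mean is lowest at 382 CPM, with its livers overlapping those of CCl4+siLuc. The CCl4+4MU mean is the highest of the CCl4 groups at 827 CPM.

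Per length of exon, in median CPM per kilobase, the order of levels in control livers was Sult1a1 (238), Sult1d1 (77.4), Sult2a8 (53.5), Sult2a3 (25.5), Sult1b1 (11.4), Sult3a1 (6.50), Sult1c2 (5.34), Sult1e1 (0.731) and Sult5a1 (0.0657). Sult1a1 stood apart from the next gene in each of the 8 groups. Sult1d1 and Sult2a8, Sult2a8 and Sult2a3, Sult3a1 and Sult1c2, and Sult1c2 and Sult1e1 overlapped over the 4 control livers. In CCl4-only livers the order of CPM per kilobase was Sult1a1 (74.7), Sult1d1 (39.9), Sult1b1 (6.71), Sult2a8 (6.18), Sult1e1 (2.47), Sult1c2 (2.13), Sult2a3 (0.552), Sult3a1 (0.0534) and Sult5a1 (0.0251). Sult2a3 was now placed behind Sult1b1, Sult1e1 and Sult1c2. In CCl4+4MU livers Sult1e1 came next after Sult1d1 at 14.3 CPM per kilobase, overlapping with its neighbours Sult1d1 (65.3) and Sult2a8 (12.3).

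The relatives and the supply of the sulfo donor were read from fixed lists. Of the other 12 sulfotransferases 6 were tested, all in the Sult2a family, and all 6 were lower in CCl4-only against control, where 16.1% of all tested genes were lower. The log2 fold changes ran from -4.21 for Sult2a7 (SE 1.00) through -3.08 for Sult2a1 and -2.83 for Sult2a5 to -1.94 for Sult2a2 (SE 0.325), and Sult2a4 and Sult2a6 stood at -1.99 and -2.27. Sult2a1, Sult2a2, Sult2a4 and Sult2a5 share transcript stretches with each other, so their counts are uncertain one from another. None of the 6 was higher in CCl4+4MU or in CCl4+siHAS2 against CCl4-only, with medians of 1.06 and 0.70.

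Of 6 genes that make, carry or break down PAPS, 1 rose in CCl4-only against control, near the 18% of all tested genes that rose there. It was Papss1, a synthase of the donor, at 0.86 (SE 0.203, adjusted p = 0.00217). Papss1 fell by 0.77 in CCl4+4MU (adjusted p = 0.0117) and by 0.93 in CCl4+siHAS2 (adjusted p = 0.00495) against CCl4-only. Of 9 genes that turn cysteine or sulfide into sulfate, 4 fell with CCl4 alone, where 16.1% of all tested genes fell. They were Cdo1 (cysteine dioxygenase) at -1.74, Ethe1 (persulfide dioxygenase) at -1.38, Suox (sulfite oxidase) at -1.22 and Got1 (aspartate aminotransferase) at -0.87. In CCl4+4MU against CCl4-only 2 of the 9 rose (8.28% of all tested genes), Cth (cystathionine gamma-lyase) at 1.22 and Cdo1 at 0.94. In CCl4+siHAS2 the rises were 1.12 and 0.92 for the same 2 genes (7.11% of all tested genes rose). Of 4 sulfatases tested, which remove sulfate groups, Arsb (1.34), Arsa (0.94) and Arsg (0.66) rose and Arsk (-0.57) fell in CCl4-only against control. Of all tested genes 18% rose and 16.1% fell there. Neither of the 2 tested genes of sulfate uptake passed there, and Slc26a2, a sulfate transporter, fell by 0.71 in both CCl4+4MU and CCl4+siHAS2 against CCl4-only.

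Of 11 nuclear receptors and hepatocyte factors tested, 4 fell in CCl4-only against control (16.1% of all tested genes). Among them were Nr1i3, the xenobiotic receptor CAR, at -2.31, Nr1h4, the bile acid receptor FXR, at -0.57, and Nr5a2 at -0.49. In CCl4+4MU against CCl4-only 4 of the 11 rose (8.28% of all tested genes), among them Nr1i3 at 1.86, Nr1i2, the xenobiotic receptor PXR, at 1.02, and Nr1h4 at 0.72. In CCl4+siHAS2 against CCl4-only 3 rose (7.11% of all tested genes), among them Nr1i3 at 1.5 and Nr1h4 at 0.78. Of 11 other female-biased liver genes 10 fell (16.1% of all tested genes) and 1 rose (18%) in CCl4-only against control, with a median of -2.27. Cux2, a female-biased transcription factor, was among those that fell, at -4.27. Of 8 tested male-biased genes 2 rose (18% of all tested genes) and 3 fell (16.1%), with a median of -1.40.

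Across livers the members were only loosely related. Because CCl4 splits the livers into separate sets, Spearman's rho of log2 CPM between members is given within each set, as a description over livers that share the groups' treatments. Over the 28 pairs of tested members its median was 0.253 in the 14 CCl4 livers and 0.146 in the 13 others. It ran from -0.283 (Sult1c2 with Sult3a1) to 0.736 with 6 pairs below 0 in the CCl4 livers. In the others it ran from -0.758 (Sult1d1 with Sult2a8) to 0.560 with 10 pairs below 0. Sult3a1 held 0 to 7 counts in the CCl4 livers, with 6 of the 14 at 0. Its rho values there, with members or with other genes, thus rank mostly counting noise. Sult2a3 and Sult3a1, both lower with CCl4, had a rho of -0.615 in the livers without it. The genes most like each member over all 27 livers were, for Sult2a3, Scnn1a (rho 0.754 in CCl4 livers and 0.890 in the others), Slco2b1 and Slc16a10. For Sult2a8 they were Csrp3 (0.701 and 0.780), Ppp2r5a and Ccdc162, and for Sult3a1 they were Cyp2b13 (0.616 and 0.588), Rsph4a and Afg2b. Sult1a1 was most like Rnase4 (0.925 and 0.484), Apoa2 and Ang (Rnase4 and Ang overlap in the genome), and Sult1e1 like Cyp17a1 (0.851 and 0.725), Marveld1 and Nnmt. Sult1b1 was most like Ccni, Cops2 and Akr1c13, Sult1c2 like Slc22a4, Hcn3 and Zbed4-ps1, and Sult1d1 like Hsd17b10, Adk and Tmem38b. For Sult1a1 the likeness to Rnase4 was thus closer within the CCl4 livers, where its levels spread from 177 to 685 CPM, than within the others, at 497 to 939 CPM.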

How the data were processed

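PolyA RNA of 27 livers was sequenced in paired-end mode on a NextSeq500 from directional libraries. Per the labels and the study's methods, the authors trimmed reads with Trimmomatic, aligned them to GRCm39 with HISAT2 (Ensembl annotation) and deposited raw counts per gene from featureCounts, with pairs that map to several places left out; the strand setting is not given in the sources used here. From these counts, genes averaging 10 counts or more across libraries were kept (14114 of 55414), scaled by TMM and fitted in 1 model with 8 groups by edgeR 4.0.16 quasi-likelihood in R 4.3.3. Comparisons were contrasts of that fit, called at an adjusted p under 0.05. Standard errors were the log2 fold change divided by the square root of F. Symbols came from the reference annotation, which matched 54749 of 55414 identifiers.

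The members and gene lists were chosen with earlier results of these data known. Genes named were the 9 members, list genes past the threshold, and for each tested member the 3 tested genes with the highest Spearman's rho. Replicate numbers did not pair the mice (same-number correlations of -0.32 to 0.206 over 12 comparisons, with 0 comparisons having all pairs above 0.1). Mice of a group differed beyond sampling noise in each of 34 pairs (chi-square per degree of freedom of 15.9 to 458), so none was counted as a repeat. The labels mark samples as replicates and do not say how mice were caged, so p-values measure the spread between these samples. Alternatives were DESeq2 1.42.0, limma 3.58.1 with quality weights, other scaling and filters, fewer groups, a replicate block and each replicate left out. Scripts were tested on simulated data. Intervals and floors of 3 counts cover counting error only. Upstream sequences are RefSeq GRCm38.p6, and protein sequences were not used here.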

Additional observations from a re-analysis of the deposited data

Results flagged for a closer look

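Gaps between the highest or lowest liver and the rest were examined in 36 groups of 4 livers, of which 4 stood out by Dixon's criterion, and chance alone flags about 1 in 20 such groups. Sult1a1 in CCl4+siHAS2 had its highest liver at 422.1 CPM with the next at 378.4 CPM. Sult1c2 in CCl4+4MU had 1 liver at 17.74 CPM with the next at 8.683 CPM, and this was CCl4+4MU mouse 4, the liver with the most reads from gut and smooth muscle genes. Sult1e1 in control had 1 liver at 27 CPM with the next at 1.017 CPM, and in CCl4+siHAS2 1 liver at 2.698 CPM with the next at 1.362 CPM.

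A difference between arms was tested for Sult1a1 in 5 comparisons, of which 2 passed. The change with 4MU was larger in CCl4 livers than in livers without CCl4 by 1.582 on the log2 scale (adjusted p = 0.0115), and the change with siHAS2 against no particle by 1.089 (adjusted p = 0.0369), in a comparison added after the data were seen. Without CCl4-only mouse 2 both calls were lost (adjusted p = 0.111 and 0.31). The other 3 did not pass, at 0.69 for siLuc against no particle (adjusted p = 0.47), 0.40 for siHAS2 against siLuc (adjusted p = 0.627) and 0.49 for 4MU against siHAS2 (adjusted p = 0.401), and the first and last of these were also added after the data were seen.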

How the results depend on the processing

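Log2 fold changes were followed for 64 pairs of a member and a comparison. Among their 1064 alternative values 1003 kept their direction and their side of the threshold, and none of the 28 called member values changed sign. Counts of members are not part of these numbers. Counts of members past the threshold moved as follows, and where nothing else is said the cause was not tested. DESeq2 called 1 in CCl4+siLuc against CCl4-only and 1 in CCl4+4MU against CCl4+siHAS2. Limma called 5 in CCl4+siHAS2 against siHAS2 and 1 each in CCl4+siLuc against CCl4-only, CCl4+4MU against CCl4+siHAS2 and siHAS2 against siLuc. With no low-count filter 5 passed in CCl4+siHAS2 against siHAS2, 5 in CCl4+4MU against CCl4-only, and 2 each in CCl4+siHAS2 against CCl4-only, CCl4+4MU against CCl4+siHAS2, siLuc against control, siHAS2 against siLuc and the siHAS2 by CCl4 interaction. Fitted on just the groups being compared, 5 passed in CCl4+siHAS2 against siHAS2 and 1 in CCl4+4MU against CCl4+siHAS2. By unadjusted p the counts were 6 in CCl4+siHAS2 against siHAS2 (27.3% of all tested genes) and 4 in CCl4+4MU against CCl4-only (33.8%). They were 3 in CCl4+4MU against CCl4+siHAS2 (18.6%), and 2 each in CCl4+siHAS2 against CCl4-only (29.9%) and siHAS2 against siLuc (8.94%). Counts of 1 each were found in CCl4+siLuc against CCl4-only (14.2%), siLuc against control (6.8%) and the siHAS2 by CCl4 interaction (11.4%). The share of all tested genes was not computed for the other alternatives, so those counts cannot be set against it. Asking also for a change of 1 or more in size on the log2 scale left 3 over the averaged arms and 0 in CCl4+siHAS2 against CCl4-only, by its construction.

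Leaving out 1 replicate at a time gave 4 to 7 members in CCl4-only against control, 0 to 3 in CCl4+4MU against CCl4-only, 0 to 2 in CCl4+siHAS2 against CCl4-only, 0 to 1 in CCl4+siLuc against CCl4-only and 0 to 1 in the 4MU by CCl4 interaction. With 1 CCl4-only liver left, that liver is assumed to vary like the other groups. For none of these fits was the share of all tested genes computed.

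Sult1e1, never called by the main test, changed sign. In CCl4+4MU against 4MU it was -0.13 by limma, -0.75 with a replicate block and -0.53 without CCl4+4MU replicate 4. Averaged over the arms it was 0.0855 by limma, 0.17 with the livers pooled, and 0.42, 0.0894 and 0.19 without control replicate 4, 4MU replicate 2 and siHAS2 replicate 1. It was 1.86 in CCl4-only against control without control replicate 4, -0.28 in 4MU against control without 4MU replicate 2 and 0.13 in CCl4+siHAS2 against siHAS2 without siHAS2 replicate 1. Sult1d1 in CCl4+siLuc against siLuc was 0.0623 without siLuc replicate 1. With 1 replicate left out at a time, the Sult1e1 value ranged from -3.79 to 1.86 in CCl4-only against control, from -0.98 to 0.42 over the averaged arms, from -0.28 to 4.71 in 4MU against control, from -0.53 to 2.35 in CCl4+4MU against 4MU and from -2.61 to 0.13 in CCl4+siHAS2 against siHAS2. The replicate block moved no count by more than 1.5 times, and the mice share only a number. Sult3a1 and Sult5a1 are limited by depth in CCl4 livers.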
